A study of Mus musculus with 9 samples.

Results

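The alcohol dehydrogenase (Adh) genes of the mouse lie side by side on chromosome 3, which also carries Nfkb1, the gene edited in the mice studied here. The members were the 6 protein-coding genes Adh7, Adh1, Adh6a, Adh6b, Adh4 and Adh5 and the antisense RNA 0610031O16Rik, found by gene name, 7 of the 52636 genes in the tables. They were chosen by their levels in C59A: several of them differ there from the other genotypes. Their C59A values are therefore given as a description with no test. Only C59S against WT, a comparison the choice did not use, was tested for them, although the choice set C59A beside these same libraries. RNA was sequenced from whole kidney in 9 libraries, 3 for each genotype. The groups were NF-KB1C59A (activated), NF-KB1C59S (inactivated) and WT, called C59A, C59S and WT here. Both mutant groups are knock-in mice in which the codon for cysteine 59, in exon 6 of Nfkb1 (the p50 subunit of NF-kappaB), was replaced, with a PGK-neo selection cassette inserted in a nearby intron. The alleles were made in a C57BL/6NTac-derived embryonic stem cell line injected into C57BL/6 blastocysts. The design text states for which codon DNA binding falls and for which it grows in the opposite order to the words activated and inactivated, and it gives alanine for both codons, so the direction of NF-kappaB activity is not assumed below. Neither age, sex nor litter is given, zygosity is not stated, and the replicates are not said to be separate animals, so each p-value measures only the spread between these libraries, which may be technical.

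Alcohol dehydrogenases are zinc enzymes that pass hydrogen between alcohols and aldehydes with NAD as the partner. Mammals carry several classes of them in 1 tandem cluster, and the classes differ in substrate and tissue: Adh1 (class I) oxidises ethanol and retinol, Adh4 (class II) is best known from liver, Adh5 (class III) is the glutathione-dependent formaldehyde dehydrogenase and S-nitrosoglutathione reductase present in almost every cell, Adh7 (class IV) oxidises retinol in epithelia such as stomach, and Adh6a and Adh6b belong to the least studied class. Aldehyde dehydrogenases carry the products on, to acetate or to retinoic acid, the ligand of the RAR receptors. In the mouse kidney Adh1 is known as a proximal tubule gene whose mRNA responds to androgen.

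The cluster begins 2.52 Mb beyond the end of Nfkb1 (GRCm38, minus strand, chr3:135584655-135691547) and spans 245 kb. In order along the chromosome it holds 0610031O16Rik (chr3:138210716-138240405, minus strand), Adh7 (chr3:138217760-138233382), Adh1 (chr3:138260991-138290698), Adh6a (chr3:138313286-138331134), Adh6b (chr3:138341775-138358861), Adh4 (chr3:138415466-138430892) and Adh5 (chr3:138443093-138455499), all 6 Adh genes on the plus strand. Adh7 lies wholly inside the span of the antisense RNA, and their exons share 108 bases. The library kit does not mark strand in its usual form and the strand setting of the counting was not given, so reads from a gene and its antisense partner cannot be told apart in such shared bases. The coding sequences of the 6 enzymes are old duplicates: Adh6a and Adh6b match at 73.2% of aligned bases and share 5 stretches of 50 bases, while the other 14 pairs match at 60.6% to 69.2% and share no such stretch.

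The promoters of the 4 members whose C59A libraries all lay above the others are given here as the 250 bases before the RefSeq start (GRCm38.p6), 5′ to 3′ on the gene's strand, because these members stood high together. Capitals mark matches on either strand to any of 4 motifs: GGGNNNNNCC (the kappaB site bound by NF-kappaB), TGTTCT (a core sequence of androgen receptor sites), TATAAA and CCAAT. The windows are chr3:138217523-138217772 for Adh7, chr3:138239664-138239913 on the minus strand for 0610031O16Rik, chr3:138277335-138277584 for Adh1, whose RefSeq start lies downstream of the first annotated exon, and chr3:138442843-138443092 for Adh5.
Adh7: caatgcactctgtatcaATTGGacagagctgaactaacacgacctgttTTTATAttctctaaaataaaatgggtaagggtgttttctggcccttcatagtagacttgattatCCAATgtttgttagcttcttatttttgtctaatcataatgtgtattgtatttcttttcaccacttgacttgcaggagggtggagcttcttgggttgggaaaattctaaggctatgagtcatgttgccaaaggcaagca
0610031O16Rik: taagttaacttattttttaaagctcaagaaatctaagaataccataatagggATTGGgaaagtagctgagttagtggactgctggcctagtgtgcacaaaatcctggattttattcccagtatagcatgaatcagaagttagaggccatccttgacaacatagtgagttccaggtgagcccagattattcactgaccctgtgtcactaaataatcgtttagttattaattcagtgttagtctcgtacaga
Adh1: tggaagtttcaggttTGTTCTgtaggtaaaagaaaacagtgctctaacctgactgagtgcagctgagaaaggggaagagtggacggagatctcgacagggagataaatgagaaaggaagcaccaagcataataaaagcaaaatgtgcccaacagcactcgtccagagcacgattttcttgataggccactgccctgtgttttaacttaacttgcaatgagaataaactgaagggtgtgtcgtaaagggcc
Adh5: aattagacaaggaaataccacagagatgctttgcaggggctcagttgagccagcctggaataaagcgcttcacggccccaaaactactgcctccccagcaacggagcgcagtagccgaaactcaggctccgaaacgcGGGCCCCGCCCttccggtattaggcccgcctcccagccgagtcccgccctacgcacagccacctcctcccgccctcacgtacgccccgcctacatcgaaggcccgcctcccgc

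The 4 windows had little in common. Adh1 held 1 such TGTTCT core, 235 to 230 bases before its start, a motif found in 16.1% of the 32851 promoters in the table. Adh7 held TATAAA on the minus strand, 202 to 197 bases before the start, and CCAAT at 2 places. TATAAA occurs in 12.4% and CCAAT in 33.8% of all promoters. 0610031O16Rik held 1 CCAAT match. The kappaB letters were found in the printed Adh5 window, where a match on each strand overlaps the other by all but 1 base at each end in a window of 63.6% G and C, and in none of the windows of Adh7, 0610031O16Rik, Adh1, Adh6a or Adh4. Of all promoters, 45.8% hold them. RefSeq gives Adh5 a second, upstream start, whose window (chr3:138436950-138437199, not printed) held 3 kappaB matches, counting both strands, and 1 TATAAA. A match is a description of letters and not a binding site, and the absence of a match says only that these letters are not in this window. RefSeq windows were found for 6 of the 7 members, Adh6b being the one not matched.

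The libraries held 16367403 to 25787659 counted reads, and the smallest level that 3 reads allow was 0.112 to 0.202 CPM (reads per 1e+06 reads of the scaled library). The kidney label was checked against 14 proximal tubule markers, and all 14 had reads in every library. Nfkb1 itself had 39.7, 31.0 and 29.2 CPM in C59A, 39.7, 37.5 and 36.9 CPM in C59S and 32.2, 33.8 and 36.8 CPM in WT. No difference in it passed the test, the smallest adjusted p being 0.416 (edgeR's quasi-likelihood test, adjusted by Benjamini-Hochberg over 17114 genes), and a codon change is not seen in a gene's total. Before any result on C59A, 1 fact of the groups has to stand beside it: the Y-linked Ddx3y had 46.9, 43.2 and 46.3 CPM in C59A against at most 0.810 CPM in any C59S or WT library, and Xist had 0.725, 0.340 and 0.191 CPM in C59A against 885 to 895 CPM in C59S libraries and 816 to 1276 CPM in WT libraries. The C59A genotype and this sex-linked difference cannot be told apart in any comparison with C59A, and C59S and WT were not split by these genes. In whole tissue, moreover, more cells of a type and more RNA per cell cannot be told apart.

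Adh1, the class I enzyme, was the most abundant member in every library. It had 643, 527 and 929 CPM in C59A, 97.0, 138 and 140 CPM in C59S, and 111, 108 and 147 CPM in WT. The lowest C59A kidney lay far above the highest kidney of either other group, while C59S and WT overlapped almost completely. Per length, in FPKM, the means were 311 ± 96.0 in C59A, 55.5 ± 11.2 in C59S and 53.5 ± 9.75 in WT (SD, n = 3 each). By mean FPKM, Adh1 stood at place 124 of 14422 protein-coding genes tested in C59A, at 768 in C59S and at 762 in WT. The fitted log2 fold change was 2.52 ± 0.24 (SE) for C59A over WT, a fold of 5.74, and 2.48 ± 0.24 for C59A over C59S. For C59S over WT it was 0.04 ± 0.23, with a 95% interval from -0.46 to 0.53 and an adjusted p of 0.948 (edgeR's quasi-likelihood test). That interval puts the C59S level of Adh1 between 0.727 and 1.45 times the WT level.

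Adh5, the formaldehyde-detoxifying enzyme, is the second most abundant member per length. It had 146, 158 and 200 CPM in C59A, 92.6, 119 and 95.6 CPM in C59S, and 101, 130 and 121 CPM in WT. All 3 C59A libraries lay above all others, by a narrow margin over the second WT library. Its FPKM averaged 30.8 ± 5.54 in C59A, 18.8 ± 2.77 in C59S and 21.3 ± 2.73 in WT (SD, n = 3 each). The log2 fold change was 0.52 ± 0.16 for C59A over WT and 0.71 ± 0.16 for C59A over C59S, small beside those of Adh1. With totals in place of TMM scaling the C59A over WT value of Adh5 was 0.28, where the median gene stood at -0.26. In C59S over WT it was -0.20 ± 0.16 (adjusted p = 0.544, edgeR's quasi-likelihood test, 95% interval -0.55 to 0.16).

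Adh7, the retinol-oxidising enzyme of epithelia, was scarce in C59S and WT kidneys. It had 18.2, 9.29 and 26.7 CPM in C59A, 0.672, 1.08 and 4.45 CPM in C59S, and 1.35, 0.805 and 0.477 CPM in WT. These levels rest on 164 to 560 reads per library in C59A, 18 to 66 in C59S and 10 to 32 in WT. Every C59A library lay above every other, and the third C59S library stood above all WT libraries. Its mean FPKM was 4.74 ± 2.33 in C59A, 0.542 ± 0.545 in C59S and 0.227 ± 0.113 in WT (SD, n = 3 each), so that even in C59A it remained a minor enzyme next to Adh1 and Adh5. The log2 fold change was 4.34 ± 0.76 for C59A over WT and 3.22 ± 0.70 for C59A over C59S. For C59S over WT it was 1.12 ± 0.78, with a 95% interval from -0.67 to 2.91 and an adjusted p of 0.482 (edgeR's quasi-likelihood test). Without the third C59S library that value was -0.027, and C59A over C59S became 4.37, so 1 library carries the difference between C59S and WT. That library also had the highest summed level of 5 urothelium markers, 64.5 CPM, against 6.90 and 17.2 CPM in the other C59S libraries and 3.62 to 6.48 CPM in WT. It had the largest share of mitochondrial reads as well, 40.6%, against 16.4% to 28.8% in the other 8 libraries. The same library had the highest adipocyte marker sum, 1277 CPM, against 153 and 639 CPM in the other C59S libraries. It also held 12 reads of the Y-linked Ddx3y, against 0 to 3 in the other C59S and WT libraries. Among the C59A libraries the urothelium order was the opposite, with sums of 6.10, 27.5 and 1.05 CPM, the lowest, with Krt5 at 0 reads, in the library with the most Adh7. None of the 5 urothelium markers passed the test in any comparison. The part of these markers, or of that C59S library's other traits, in the Adh7 level was not tested.

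0610031O16Rik, the antisense RNA that spans Adh7, had 13.3, 5.27 and 17.7 CPM in C59A, 0.261, 0.045 and 0.337 CPM in C59S, and 0.716, 0.302 and 0.381 CPM in WT. In reads these are 221, 93 and 372 in C59A, 7, 1 and 5 in C59S, and 17, 6 and 8 in WT. The C59A libraries stood in the same order as for Adh7, the third library highest and the second lowest. The log2 fold change was 4.66 ± 0.55 for C59A over WT and 5.84 ± 0.62 for C59A over C59S. It was -1.18 ± 0.73 for C59S over WT (adjusted p = 0.417, edgeR's quasi-likelihood test, 95% interval -2.80 to 0.43), the side opposite to the fitted value of Adh7. The antisense RNA passed the cut on low counts, 0.526 CPM, in 3 C59A libraries, no C59S library and 1 WT library, so it entered the test through the group in which it is high.

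Of the reads assigned to either of this overlapping pair, 42.3%, 36.2% and 39.9% belonged to the antisense RNA in the 3 C59A libraries, with exact 95% binomial (Clopper-Pearson) intervals of 38.1% to 46.7%, 30.3% to 42.4% and 36.7% to 43.1%. In C59S the shares were 28% of 25 reads, 4.00% of 25 reads and 7.04% of 71 reads. In WT they were 34.7% of 49 reads, 27.3% of 22 reads and 44.4% of 18 reads. The C59A shares thus lay within the range of the WT shares, while the levels of both genes differed many times over, and the third C59S library was high in Adh7 with only 5 antisense reads. The intervals cover counting error only, and in C59S and WT they are wide: 12.1% to 49.4% in the first C59S library and 21.5% to 69.2% in the third WT library.

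**Figure D1:**
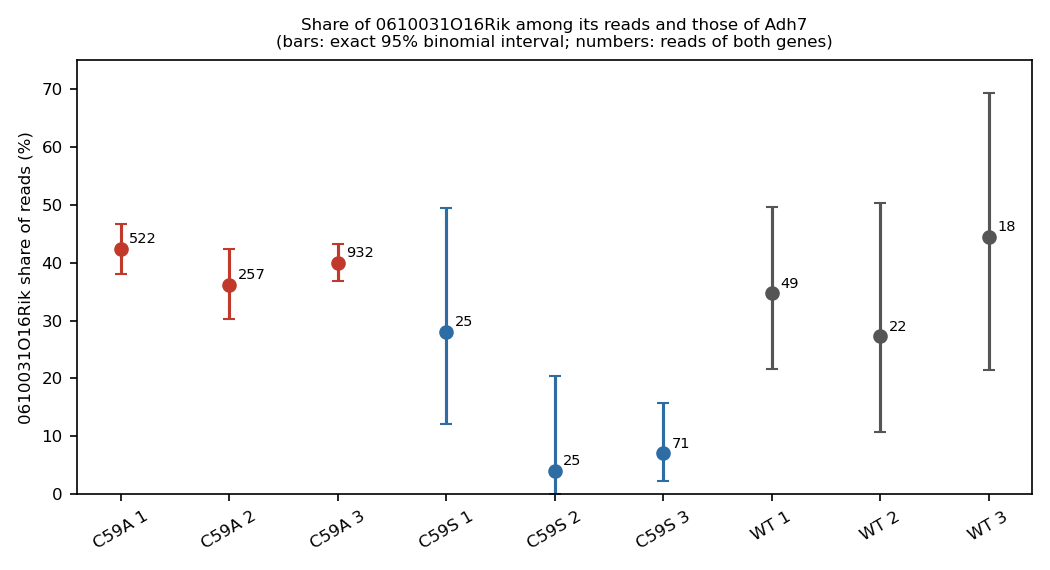
Share of 0610031O16Rik (percent, vertical axis) among its own reads and those of Adh7 in each of 9 kidney libraries (horizontal axis), with exact 95% binomial intervals as bars and the number of reads of both genes beside each point. C59A shares run from 36.2% to 42.3%, and 2 of the 3 C59S shares, 4.00% and 7.04%, lie below every WT share.

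The remaining 3 members were near or below the limit of detection. Adh6a had 4, 7 and 14 reads in C59A, 4, 11 and 11 reads in C59S, and 7, 9 and 8 reads in WT, and the 3 groups overlapped. Its log2 fold change was 0.24 ± 0.62 for C59A over WT, 0.01 ± 0.58 for C59A over C59S and 0.23 ± 0.62 for C59S over WT (adjusted p = 0.877, edgeR's quasi-likelihood test, 95% interval -1.13 to 1.58). Adh6a passed the cut on low counts in 1 C59A library, 2 C59S libraries and no WT library, so it entered the test through the mutant groups. Adh6b, its closest relative, had 9, 0 and 43 reads in C59A, 2, 0 and 1 in C59S, and 3, 3 and 4 in WT. It was not tested because too few libraries passed the cut. A single C59A library, the third, gave 43 of its 52 C59A reads, and the second gave none. The ratio of scaled reads was 6.09 for C59A over WT (95% counting interval 3.06 to 13.4) and 20.0 for C59A over C59S (6.49 to 100.3), where the C59S sum is only 3 reads, and neither interval covers the spread between libraries. Adh4, the class II enzyme, had 0, 3 and 4 reads in C59A, 1, 0 and 1 in C59S, and 0, 0 and 1 in WT, which at this depth cannot be told from absent in C59S and WT. Its C59A over WT ratio of 8.19, from 7 reads against 1, has a counting interval of 1.05 to 369. The pseudogene between Adh6b and Adh4, Adh6-ps1, had 1 read in all 9 libraries together.

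**Figure D2:**
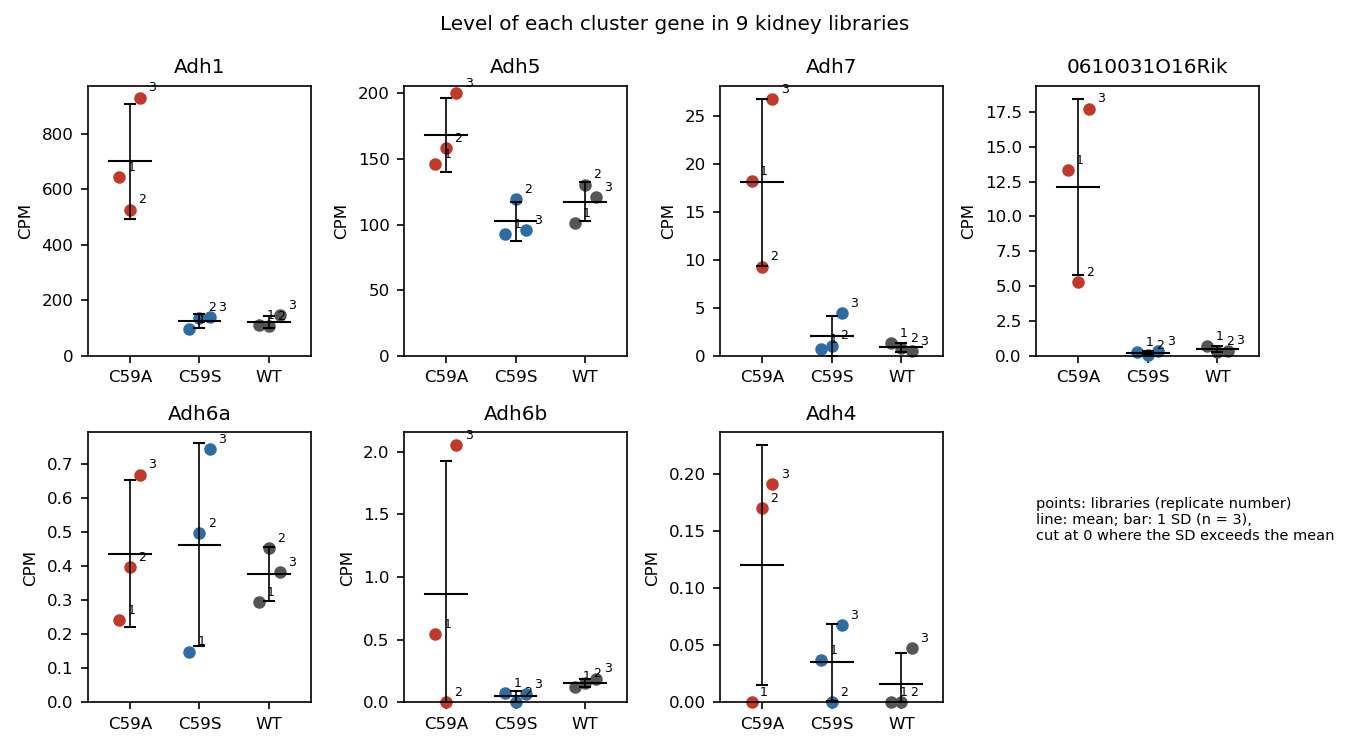
Level of each of the 7 cluster genes in CPM (vertical axis, 1 scale per gene, starting at 0) in the C59A, C59S and WT libraries (horizontal axis), with the replicate number beside each point, the mean as a line and 1 SD as a bar (n = 3 each). In Adh1, Adh5, Adh7 and 0610031O16Rik all 3 C59A points lie above all others, and in Adh6a, Adh6b and Adh4 the C59A points overlap those of C59S and WT.

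Side by side, 4 of the 7 members (Adh1, Adh5, Adh7 and 0610031O16Rik) had all 3 C59A libraries above all WT libraries, and the same 4 had them above all C59S libraries. Of all 17114 genes tested, 24.6% had C59A and WT libraries that did not overlap, with C59A above in 12.6%, and 29.3% had C59A and C59S libraries that did not overlap, with C59A above in 14.7%. Those shares are given only as the setting, since the C59A levels chose the members. Both comparisons share the C59A libraries. In C59S over WT, 0 of the 5 members tested passed edgeR's quasi-likelihood test, where 0% of all genes did, and 0 had an unadjusted p under 0.05. Among all genes 3093 had such an unadjusted p, and DESeq2 called 670. Of the 5 members, 0610031O16Rik entered the test through C59A and Adh6a through the mutant groups. A fit of the 6 libraries with the replicate number as a block called 638 of all genes. Of the members that fit tested only Adh1, Adh5 and Adh7, and none was called. Their log2 fold changes in it were 0.02, -0.21 and 0.83 (adjusted p = 0.938, 0.217 and 0.597, edgeR's quasi-likelihood test). 0610031O16Rik and Adh6a did not pass the filter of that fit and had no test there. The intervals given for single members come from the fit without the block, although same-numbered C59S and WT libraries counted as paired. The signs of the 5 fitted C59S values were mixed, positive for Adh1, Adh7 and Adh6a and negative for Adh5 and 0610031O16Rik, and each of the 5 intervals includes 0. In libraries rather than fits, Adh6b alone had all C59S libraries below all WT libraries, at 3 against 10 reads in sum, with a ratio of 0.304 and a counting interval of 0.0537 to 1.18. Of all genes tested, 22.5% had C59S and WT libraries that did not overlap.

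The members that stood high in C59A did not do so to the same extent, so the makeup of the cluster's mRNA differed as well as its amount. The FPKM of the 6 enzymes summed to 315, 263 and 463 in C59A, 59.6, 83.8 and 81.6 in C59S, and 67.3, 71.3 and 87.1 in WT. Adh1 made up 90.0%, 88.0% and 90.3% of that sum in C59A, 71.4%, 73.2% and 76.6% in C59S, and 72.1%, 66.3% and 74.4% in WT. Most of the rest was Adh5. The ratio of Adh1 to Adh5 in FPKM was 10.7, 8.05 and 11.3 in C59A, 2.54, 2.80 and 3.56 in C59S, and 2.65, 2.00 and 2.94 in WT. The lowest C59A ratio lay above the highest of the other 6 libraries, while C59S and WT overlapped. Within C59A, the second library was the lowest in Adh1, Adh7 and 0610031O16Rik and the first was the lowest in Adh5, while the third library was the highest in all of them.

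**Figure D3:**
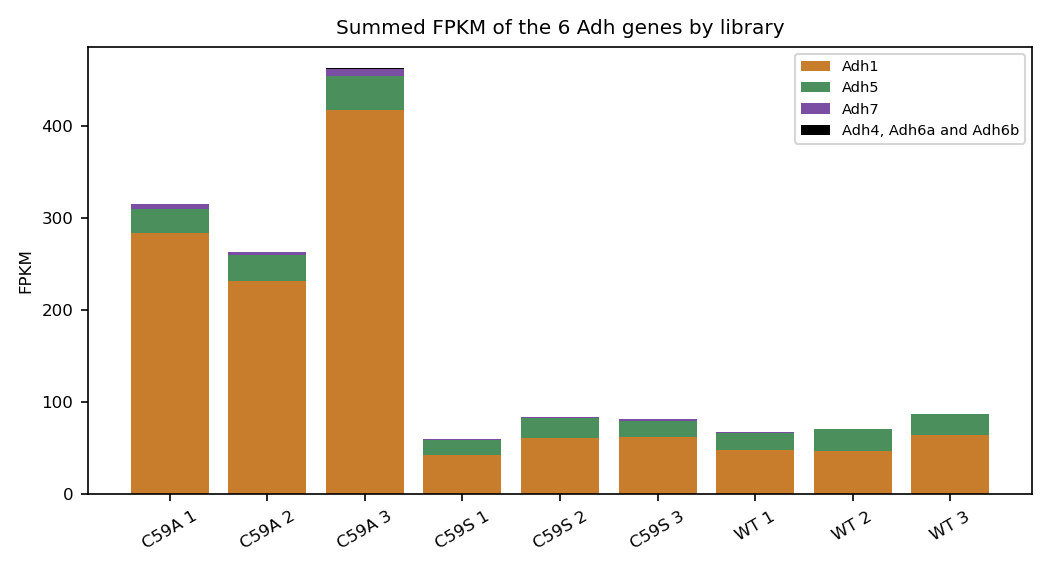
Summed FPKM of the 6 Adh genes (vertical axis, from 0) in each library (horizontal axis), stacked by gene. The C59A sums run from 263 to 463 and those of C59S and WT from 59.6 to 87.1, with Adh1 as the largest part of every bar and Adh4, Adh6a and Adh6b too small to see in most.

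Since the members share a stretch of chromosome with the edited gene, the genes around them were set beside them. Within 2 Mb of the cluster, its inside included, lie 67 other genes, of which 17 were tested. In C59A over WT 1 of the 17 was called higher and 0 lower, against 5.7% of all genes, and their median log2 fold change was 0.24, against -0.02 over all genes tested. The same 17 had a median of 0.00058 in C59A over C59S and of 0.10 in C59S over WT. The called gene was Tspan5, a tetraspanin 0.287 Mb beyond Adh5. It had 32.5, 26.5 and 30.8 CPM in C59A and 20.3, 17.9 and 20.9 CPM in WT (log2 fold change 0.60 ± 0.13, adjusted p = 0.0180, edgeR's quasi-likelihood test), and it lost the call in 4 of the 9 fits that leave out 1 library each. It was also called in C59A over C59S, at 0.50 ± 0.13 (adjusted p = 0.0403, edgeR's quasi-likelihood test), and lost that call in 6 of the 9 fits. With library totals Tspan5 passed in neither comparison, at 0.37 over WT (adjusted p = 0.237) and 0.47 over C59S (adjusted p = 0.181, same test). The nearest tested genes outside the cluster, on either side, were not called. Trmt10a, a tRNA methyltransferase gene before Adh7, had a log2 fold change of -0.23 ± 0.19 in C59A over WT (adjusted p = 0.530), and Metap1, a methionine aminopeptidase gene just beyond Adh5, had 0.24 ± 0.12 (adjusted p = 0.283; both edgeR's quasi-likelihood test). Between Nfkb1 and the cluster lie 48 genes, 14 of them tested, and edgeR called 0 in each of the 3 comparisons. At an unadjusted p under 0.05 there were 2 of the 14 in C59A over WT, 4 in C59S over WT and 1 in C59A over C59S, and DESeq2 called 0, 2 and 0 of them in that order. Of all 17114 genes tested, 3600, 3093 and 3924 had such an unadjusted p in these comparisons. In C59S over WT 0 of the 17 genes within 2 Mb were called, 4 had an unadjusted p under 0.05, and DESeq2 called 2.

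Of the 17 tested genes within 2 Mb that are no members, 1 lies inside the cluster itself. Gm16559, named here after its values were seen, is an RNA antisense to Adh1 (chr3:138281408-138307022, minus strand) and shares 136 exon bases with it. It had 19, 16 and 16 reads in C59A, 8, 10 and 2 in C59S, and 7, 7 and 3 in WT. Its log2 fold change was 1.805 ± 0.522 in C59A over WT (adjusted p = 0.0673) and 0.21 ± 0.56 in C59S over WT (adjusted p = 0.873; edgeR's quasi-likelihood test), and neither passed. How many of these reads came from Adh1 was not tested.

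**Figure D4:**
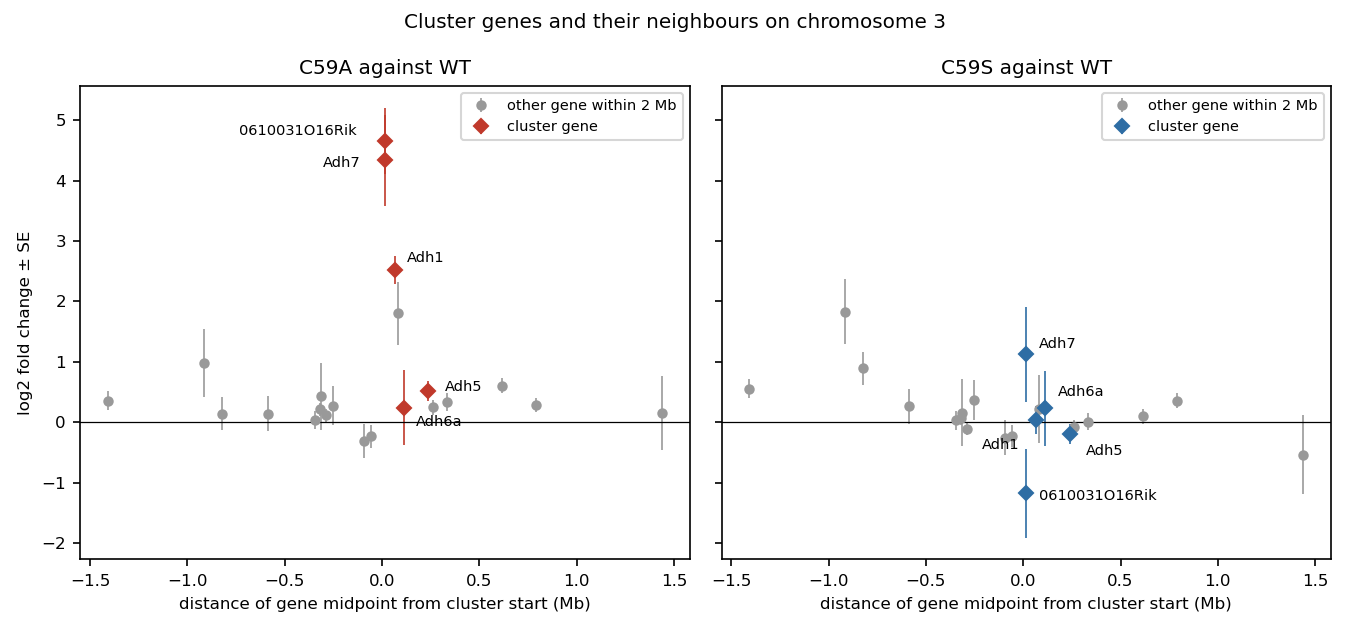
Log2 fold change with its SE (vertical axis) of the 5 tested cluster genes (diamonds) and the 17 other tested genes within 2 Mb (circles) against the distance of the gene's midpoint from the start of the cluster in Mb (horizontal axis), for C59A against WT on the left and C59S against WT on the right. In the left panel 0610031O16Rik at 4.66, Adh7 at 4.34 and Adh1 at 2.52 stand above every neighbour, and in the right panel the cluster genes lie on both sides of 0. Gm16559, which lies inside the cluster and is no member, is among the circles.

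The genes whose profiles over the 9 libraries lay nearest to a member's were searched among 13414 protein-coding genes, by the root mean square difference of log2 CPM after each gene was centred on its own mean. The C59A libraries dominate this measure, and no test belongs to it. Nearest to Adh1 were Slc22a28 (0.27), a member of an organic anion transporter family, Hmox1 (0.31), the inducible haem oxygenase, and Mogat1 (0.32), an acyltransferase of glyceride synthesis. Slc22a28 averaged 128 ± 22.8 CPM in C59A, 21.6 ± 2.14 CPM in C59S and 28.6 ± 2.36 CPM in WT (SD, n = 3 each). Nearest to Adh5 were Dnajc19 (0.08), a mitochondrial import factor, Ddah1 (0.08), which breaks down dimethylarginine, and Etfa (0.09), a subunit of the electron transfer flavoprotein. Ddah1 averaged 161 ± 18.9 CPM in C59A, 97.6 ± 14.0 CPM in C59S and 101 ± 11.1 CPM in WT (SD, n = 3 each). For the low members the nearest genes were less near. For Adh7 they were Cyp2e1 (0.71), the ethanol-oxidising cytochrome P450, Serpina1d (0.78), an alpha-1-antitrypsin, and Ugt8a (0.78), a glycolipid glycosyltransferase. For 0610031O16Rik they were Slc22a30 (0.79), another transporter of the Slc22 family, the cytochrome P450 gene Cyp2d9 (0.84) and again Ugt8a (0.84).

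The enzymes that work beside the cluster were read from 4 lists with 71 genes in the table, 61 of them tested. These lists were chosen with earlier results of these data known. The shares called are therefore a description of the lists and no test of the pathway. In C59A over WT 6 were called higher and 5 lower, 18.0% of the 61. Of all genes 5.7% were called, 3.24% higher and 2.46% lower. The median log2 fold change of the 61 was 0.02. In C59A over C59S 6 were called higher and 5 lower, where 5.91% of all genes were called, 3.35% higher and 2.56% lower. In C59S over WT edgeR called 0 of the 61, 7 had an unadjusted p under 0.05, and DESeq2 and the blocked fit of 6 libraries each called 3. Genes of alcohol and aldehyde metabolism outside the cluster were thus called in both directions in C59A.

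Aldehyde and ethanol oxidation had 14 genes tested, not all of them in the step after the alcohol dehydrogenases. Of the 14, 3 were called higher and 2 lower in C59A over WT, with a median log2 fold change of 0.31. Cyp2e1 averaged 835 ± 385 CPM in C59A and 65.0 ± 22.1 CPM in WT (log2 fold change 3.68 ± 0.56, adjusted p = 0.00749, edgeR's quasi-likelihood test). Aldh3a2, the fatty aldehyde dehydrogenase, averaged 133 ± 26.8 CPM in C59A and 67.7 ± 11.5 CPM in WT (0.98 ± 0.17, adjusted p = 0.00633, same test). The 2 acetate-activating enzymes went opposite ways: the cytosolic Acss2 rose (0.84 ± 0.14, adjusted p = 0.00627, same test) and the mitochondrial Acss1 fell (-1.48 ± 0.22, adjusted p = 0.00314, same test). With library totals Acss2 was at 0.61 and did not pass (adjusted p = 0.0843, same test). The mitochondrial Aldh1b1 fell at a low level (-1.48 ± 0.36, adjusted p = 0.0345, same test), a call lost in 7 of the 9 fits that leave out 1 library. Aldh9a1, which oxidises aminoaldehydes, rose in C59A over C59S (0.81 ± 0.19, adjusted p = 0.0310, edgeR's quasi-likelihood test), a call lost in 4 of the 9 fits that leave out 1 library and with library totals (adjusted p = 0.0788). It had 0.63 ± 0.19 in C59A over WT (adjusted p = 0.0766, same test), where it did not pass, and the difference between these values was not tested. Aldh1b1 and Aldh9a1 were named after their values were seen. The most abundant gene of the list, the aldehyde reductase Akr1a1, was not called, its level being 1081 ± 302 CPM in C59A kidneys and 1051 ± 286 CPM in WT kidneys (SD, n = 3 each).

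Of the retinol and retinal genes, 22 were tested and 1 was called in C59A over WT, with a median log2 fold change of -0.06. That gene was Rdh10, the retinol dehydrogenase that makes retinal for retinoic acid synthesis, at 41.5 ± 7.22 CPM in C59A kidneys and 23.8 ± 2.63 CPM in WT kidneys (0.80 ± 0.14, adjusted p = 0.00743, edgeR's quasi-likelihood test). With library totals Rdh10 was at 0.57 in C59A over WT and did not pass (adjusted p = 0.0757, same test). In C59A over C59S Rdh10 rose again (0.86 ± 0.14, adjusted p = 0.00621, same test). Aldh1a7, an aldehyde dehydrogenase close to the retinal-oxidising Aldh1a1, rose there too (2.00 ± 0.48, adjusted p = 0.0470, same test), and Rdh11, a retinal reductase, fell (-0.76 ± 0.16, adjusted p = 0.0168, same test). Aldh1a7 lost that call in 8 of the 9 fits that leave out 1 library and Rdh11 in 3. With library totals Aldh1a7 did not pass either (adjusted p = 0.0685, same test). Dhrs4, the most abundant of the list per length, was not called in any comparison. Sdr16c5 and Rpe65 had no reads in any library. Of the 10 tested genes for retinoic acid binding, receptors and breakdown, Rara alone was called in C59A over WT (0.45 ± 0.12, adjusted p = 0.0475, edgeR's quasi-likelihood test). It lost the call in all 9 fits that leave out 1 library. With library totals Rara was at 0.22 and did not pass (adjusted p = 0.441, same test). The median of that list was -0.20, and Rxrb, its most abundant gene, was not called.

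The other cytosolic aldehyde and ketone reductases had 15 genes tested, 1 called higher and 3 lower in C59A over WT, with a median log2 fold change of 0.08. Cbr1, a carbonyl reductase, averaged 69.2 ± 18.2 CPM in C59A, 354 ± 29.5 CPM in C59S and 309 ± 172 CPM in WT (SD, n = 3 each). It fell in C59A over WT (-2.16 ± 0.36, adjusted p = 0.00838) and in C59A over C59S (-2.35 ± 0.36, adjusted p = 0.00672; edgeR's quasi-likelihood test). Akr1c19 fell (-0.81 ± 0.14, adjusted p = 0.00628, same test), and Akr1b7 fell at a low level (-1.15 ± 0.30, adjusted p = 0.0450, same test). Akr1c14, a hydroxysteroid dehydrogenase, rose (2.74 ± 0.62, adjusted p = 0.0475, same test). Akr1b7 lost its call in 8 and Akr1c14 in 7 of the 9 fits that leave out 1 library. With library totals Akr1c14 did not pass (adjusted p = 0.0830, same test). Akr1c21, the most abundant of the list, was not called.

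**Figure D5:**
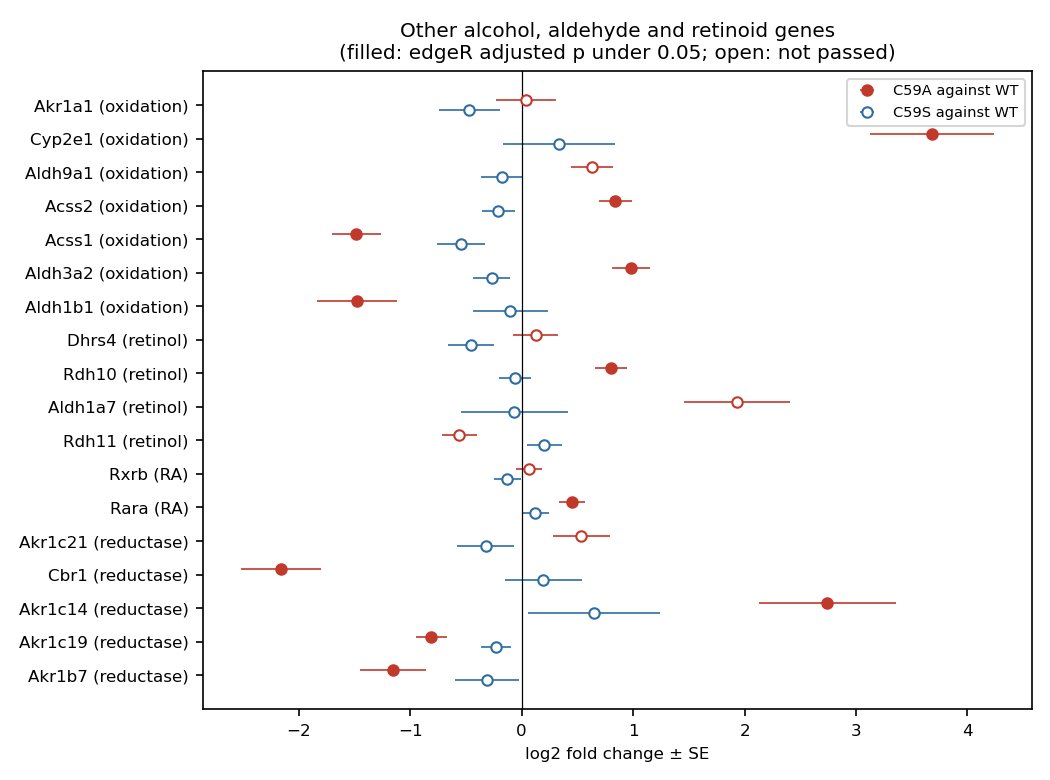
Log2 fold change with its SE (horizontal axis) of the 18 named genes of the 4 lists (rows) for C59A against WT and C59S against WT, filled where edgeR's adjusted p was under 0.05. The filled points are all from C59A, on both sides of 0, from Cbr1 at -2.16 to Cyp2e1 at 3.68.

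Beside these results stand the marker lists, not all of which moved with C59A. Of all genes tested, 5.7% were called in C59A over WT and 5.91% in C59A over C59S. All 8 genes of a list of male-biased kidney genes, Cyp2e1 and Slc22a28 among them, rose in C59A over WT and again over C59S, while edgeR called 0 of the 8 in C59S over WT, where 2 had an unadjusted p under 0.05. Their summed level was 28051 to 38951 CPM in C59A, 6383 to 13722 CPM in C59S and 3046 to 8503 CPM in WT, most of it Kap, the kidney androgen-regulated protein. Of the 14 proximal tubule markers, 4 rose and 2 fell in C59A over WT, with a median log2 fold change of -0.30. These 14 share Slc7a13 and Kap with the male-biased list. Their sum was 37701 to 45772 CPM in C59A, 14113 to 20128 CPM in C59S and 14061 to 20628 CPM in WT, but without Kap the other 13 summed to 8237 to 12554 CPM in C59A, 6468 to 8814 CPM in C59S and 11121 to 12243 CPM in WT. Slc34a1 and Lrp2, defining genes of the segment, had log2 fold changes of -0.56 ± 0.22 and -0.58 ± 0.23 in C59A over WT, and neither passed. Of 10 markers of other nephron segments 3 fell in C59A over WT (Slc12a3, Nphs1 and Scnn1b), with a median of -0.55. Of 5 genes listed as female-biased in kidney, 3 fell in C59A over WT and over C59S (Slc22a29, Gsta4 and Prlr) and 1, Cyp2d9, rose. Cyp2d9 is known as male-biased in mouse liver, so its place on that list is doubtful. Of 7 leukocyte markers 2 rose in C59A over WT (S100a8 and S100a9). Of 5 endothelium markers 2 fell in C59A over C59S (Pecam1 and Cdh5) and none passed in C59A over WT. Their sum was 218 to 250 CPM in C59A, 347 to 533 CPM in C59S and 138 to 311 CPM in WT. The C59S sums thus lay above all others. In C59S over WT their median log2 fold change was 0.93. All 5 had an unadjusted p under 0.05 there (edgeR's quasi-likelihood test), as had 3093 of all 17114 genes, and none passed. In C59A over WT the median was 0.02, with 0 at such a p. Hepatocyte markers, a check because Adh1 is abundant in liver, summed to 136 to 197 CPM in C59A, 51.9 to 121 CPM in C59S and 50.6 to 79.8 CPM in WT, and 2 of 7 tested, Serpina1a and Apoh, rose in C59A over WT. Alb, the defining gene of hepatocytes, averaged 9.25 CPM in C59A and 18.8 CPM in WT and did not pass, and Mup20 had 36 reads in 1 C59A library and none in the other 8 libraries. Adipocyte markers summed to 162 to 273 CPM in C59A, 153 to 1277 CPM in C59S and 27.4 to 63.7 CPM in WT. Every sum of either mutant group thus lay above every WT sum. None of 7 passed in any comparison. Their median log2 fold change was 6.34 in C59A over WT and 8.12 in C59S over WT. An unadjusted p under 0.05 (edgeR's quasi-likelihood test) was reached by 5 and 6 of the 7 in that order. The part of each of these lists in the Adh levels was not tested.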

How the data were processed

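The raw counts per gene (whole numbers, not normalized) and the FPKM values were used as deposited by the authors. Per the submitters' processing notes the tools were CASAVA 1.8, fastp, HISAT2 2.0.5, featureCounts 1.5.0-p3 and DESeq2 1.20.0 on GRCm38. Parameters and the strand setting are not given in the sources used here. In the deposited FPKM each count is divided by the gene's length and by a library constant of 0.802 to 1.15 times the total. All sample columns were used (0 left out). The libraries of a group differed from each other by a chi-square of 22.3 to 123 per degree of freedom, so none was a duplicate.

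Counts were filtered with filterByExpr, scaled with TMM factors (0.797 to 1.12) and fitted in 1 model of 9 libraries in R 4.3.3 with edgeR 4.0.16 (quasi-likelihood, robust). Pairs of genotypes were compared with Benjamini-Hochberg adjustment over 17114 genes, called at an adjusted p under 0.05. CPM are counts per 1e+06 of the scaled total. The standard error is the log2 fold change over the square root of F. Alternatives used DESeq2 1.42.0, limma 3.58.1 on log2 FPKM, other scaling and filters, a replicate block and the loss of each library. The code was tested on simulated data. Ratios of few reads carry exact 95% intervals that cover counting error only, and no fold was given where both groups had 3 counts or fewer.

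The members and lists were chosen with earlier results of these data known. The text names all members, up to 4 called genes of smallest p per list and comparison with the most abundant gene of each list, the called and nearest neighbours, and the 3 nearest profiles per member. Motifs were searched in RefSeq promoters (GRCm38.p6), coding identity was computed with biopython 1.88, and gene positions in the files equal those of GENCODE for all 7 members. Titles give each group replicate numbers 1 to 3. Deviations of same-numbered libraries correlated at 0.32, 0.20 and 0.26 in C59S with WT, which counts as paired by the rule that each exceed 0.1, although the sample names carry other numbers. They correlated at 0.01, -0.09 and 0.05 in C59A with WT and at -0.09, -0.29 and 0.05 in C59A with C59S, which does not.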

Additional observations from a re-analysis of the deposited data

How the results depend on the processing

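No member was called in C59S over WT in any of the 19 alternatives that tested it, the replicate block included. Adh1, Adh5 and Adh7 had a value in all 19, 0610031O16Rik in 17 and Adh6a in 14, and DESeq2 gave Adh6a no adjusted p there. The C59A log2 fold changes of Adh1, Adh5, Adh7 and 0610031O16Rik stayed positive in all 19. The members were chosen by their C59A levels and these fits reuse the C59A libraries, so that sign is no independent support. With library totals alone the median gene stood at -0.26 in C59A over WT, 20.0% of calls were higher against 56.8% with TMM, and Adh1 in C59S over WT was -0.17. That value ran from -0.051 to 0.20, Adh6a from -0.24 to 0.70 and Adh7 from -0.027 to 1.59 as single libraries were left out, and Adh7 in C59A over C59S ran from 2.76 to 4.37. Limma on log2(FPKM + 1), a pseudocount that shrinks low genes, gave Adh7 2.14 over WT and 1.86 over C59S and 0610031O16Rik 2.20 and 2.32. At 0.1 it gave 0610031O16Rik 4.63 over C59S. Adh5 in C59A over WT was 0.28 with library totals. Genes called in C59A over WT (975) were 1622 with DESeq2, 579 with limma at 0.1, 390 with the block on 2 groups, an alternative added after seeing the data, and 502 to 934 with a library left out, lowest (502 to 536) without WT replicate 1 or C59A replicate 1 or 3. In C59S over WT (0) they were 20 with library totals, 308 unfiltered, 670 with DESeq2, 638 with that block and 0 to 737, the highest without WT replicate 3. In C59A over C59S (1012) they were 670 with library totals, 1765 with DESeq2, 642 and 552 with limma at 1 and 0.1, 334 with that block and 318 to 1307, lowest (318 to 433) without C59A replicate 1 or 3 or C59S replicate 2 or 3. Pathway genes called (11, 0 and 11) were 17, 3 and 20 with DESeq2, 4, 3 and 7 with that block, where the pathway counts are C59A over WT, C59S over WT and C59A over C59S, 6 and 7 in C59A over C59S with limma, and 7 to 9, 0 to 1 and 5 to 12 with a library left out. In all 9 libraries with the block, 1004, 0 and 972 genes were called. The causes were not tested. Within 1 Mb, 15 neighbours were tested and 1 called in C59A over WT, and within 5 Mb 1 of 47 higher and 2 lower. Depth limits Adh4, Adh6a and Adh6b.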
